A study of Mus musculus with 16 samples.

Results

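Livers of mice on a high-fat diet (HFD) taken in the fed state were compared with livers of mice on a control diet (CD) taken after a 16 h fast. Both states are known to load hepatocytes with lipid, in one from the fat of the diet and in the other from fatty acids that adipose tissue releases. The comparison asks which genes stand at one level in both states and which tell them apart. Its members were the 4 libraries labelled HFD fed and the 4 labelled CD fasted, 8 of 16 in the series. All mice were males of the strain that the labels spell C56B6/J (C57BL6/J in the study's methods), with no other allele or agent named, and were 8 weeks old at the start of 16 weeks on their diet. HFD fed mice ate a diet with 60% of its energy as fat without restriction, and CD fasted mice ate control diet until the fast. The 4 CD fed libraries served as a reference for the direction of each difference, and the 4 HFD fasted libraries added to the estimate of the spread, entered no comparison and are plotted once beside the others. Diet and feeding state both differ between the groups compared, so this comparison alone cannot tell their parts apart. Where differences from CD fed livers are given, they show diet in fed livers and fasting on control diet separately. Liver lipid itself was not analysed here. The labels give no cage, litter or day, so p-values measure the spread between these mice.

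The fed liver turns carbohydrate into fatty acids under the control of insulin, SREBP1c (encoded by Srebf1) and ChREBP (Mlxipl), and makes cholesterol under SREBP2. In the fasted liver glucagon, glucocorticoids and fatty acids take over. Fatty acids activate the nuclear receptor PPARalpha, which switches on their oxidation and the synthesis of ketone bodies, while amino acids and glycerol feed gluconeogenesis. Excess fatty acid is stored as triglyceride in droplets whose coat is formed by perilipins and CIDE proteins.

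The 8 libraries held 41364448 to 53982285 counts, and the floor used for detection, 3 counts, came to between 0.0591 and 0.0767 CPM (counts per 1e6 counts, after scaling with TMM factors, which even out differences in library composition). Albumin took 9.97% ± 1.32 of counts in HFD fed and 6.82% ± 1.05 in CD fasted livers (SD, n = 4), and the TMM factor was 1.02 ± 0.0241 and 0.948 ± 0.0198. For both properties a two-sided exact permutation test gave p = 0.0286, the smallest that 4 against 4 libraries allow, and 0.0571 after adjustment over 4 library properties. The labelled tissue held its markers: of 10 hepatocyte markers 7 were at the same level in both groups and 0 differed (1 higher and 1 lower with DESeq2). Some markers of other liver cell types were higher in HFD fed livers. The share called was 50% of the endothelial and 14.3% of the Kupffer cell markers, against 21.4% of all genes tested. The summed level of 10 sinusoidal endothelial markers was 383 to 417 CPM in HFD fed and 294 to 365 CPM in CD fasted livers, with 5 members higher (3 without HFD fed replicate 1 or 2). That of 14 Kupffer cell markers was 545 to 829 and 349 to 543 CPM, with 2 members higher, and 0 or 1 when any one library other than CD fasted replicate 2 was left out, 5 with DESeq2 and 6 with library totals. All 14 log2 differences were above 0. By edgeR 0 of 10 markers of lipid-associated and recruited macrophages were called (1 higher and 1 lower by DESeq2), as were 0 of 6 cholangiocyte and 0 of 9 lymphocyte markers (1 lower each by DESeq2) and 0 of 3 neutrophil markers (0 by DESeq2). In these lists 0 members were shown to be at the same level either. For the macrophage markers 9 of 10 log2 differences were above 0 (median 0.68). Of 7 adipocyte markers the defining ones Adipoq, Lep and Plin1 were too low to test, with 41, 3 and 23 counts over the 8 libraries. The summed level of the 3 tested members, which leaves the defining ones out, was 1362 to 2404 and 171 to 1215 CPM. It was 2095 to 4271 CPM in CD fed livers. Of these 3 members 0 were called by edgeR (1, higher, by DESeq2 and by limma-voom). Of 4 erythrocyte markers tested 1 was higher, Alas2 (log2 0.77, adjusted p = 0.000387), the 1 member with a log2 difference above 0. Its call was lost in 0 of 17 alternatives. The part of these cell types in the results was not tested. The exocrine pancreas markers summed to at most 0.35 CPM in any of these 8 libraries. In these bulk samples fewer cells of a type and less RNA per cell cannot be told apart.

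Of 15075 genes tested, 3231 (21.4%) told the groups apart (adjusted p under 0.05). HFD fed livers were above CD fasted livers in 1410 of them (9.35%) and below in 1821 (12.1%). The median absolute log2 difference of these genes was 0.52, and 296 higher and 341 lower genes passed 1 on the log2 scale. The libraries of the groups did not overlap for 3441 genes (22.8%). Equal level was tested on its own, as a log2 difference shown to lie within 1.5-fold in either direction (0.58 on the log2 scale), since a missed threshold does not show that levels are alike. By that test 7488 genes (49.7%) were at the same level. Of these, 939 also differed, by less than 1.5-fold, and 6549 did not. For 5295 genes neither statement could be made. The count of differing genes rested in part on HFD fed replicate 1, without which it was 2145, with 911 higher. The count of higher genes was 945 without CD fasted replicate 2. The split also depended on scaling: with library totals in place of TMM the median of all genes moved from 0.02 to 0.13 on the log2 scale, and 2664 genes were higher and 1018 lower. In the gene lists that follow, counts of 2 or fewer in a direction often moved by 1 or 2 genes when a library was left out. List counts are to be read beside the shares over all genes, 21.4% called, 9.35% higher and 12.1% lower. Against CD fed livers, 3797 genes (25.2%) differed in CD fasted livers, 13.7% higher and 11.5% lower, and 1131 (7.5%) in HFD fed livers, 3.28% higher and 4.22% lower.

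**Figure D1:**
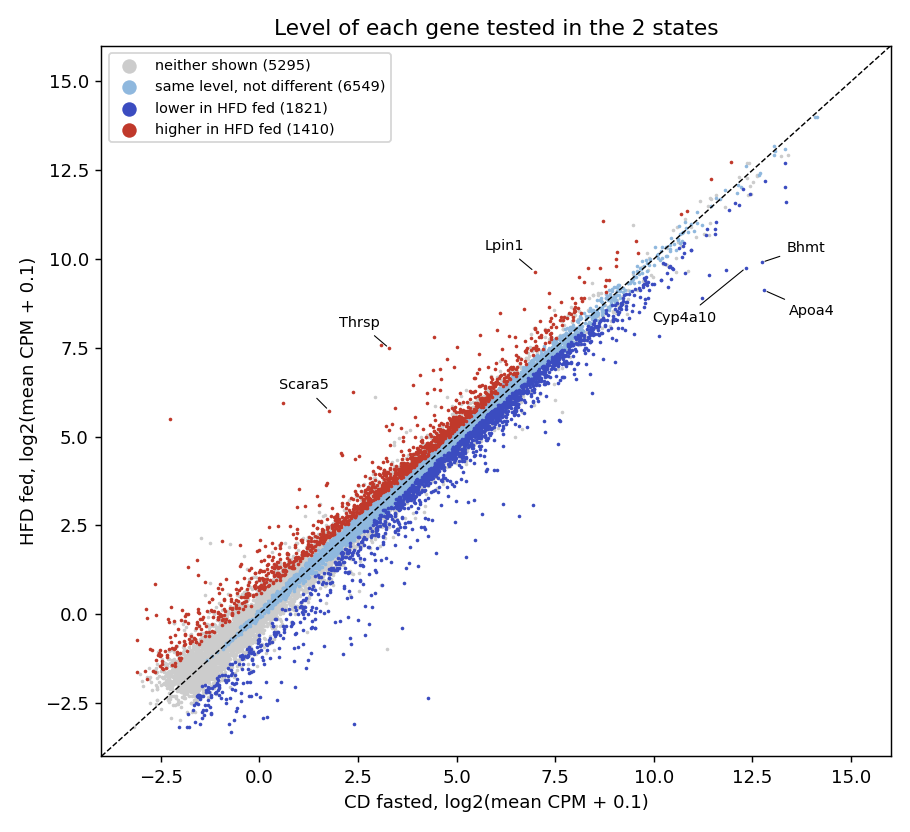
Mean level of each of the 15075 genes tested in CD fasted livers (horizontal axis) and in HFD fed livers (vertical axis), as log2 of mean CPM plus 0.1, n = 4 libraries per group. Genes higher in HFD fed livers lie above the dashed line of equal level, genes lower lie below it, and genes shown to be within 1.5-fold and not different form the band along it. Thrsp, Lpin1 and Scara5 stand above the line and Apoa4, Bhmt and Cyp4a10 below it.

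Of 24 genes of de novo lipogenesis, the synthesis of fatty acids, 13 were higher in HFD fed livers, 1 was lower and 3 were at the same level without differing, with a median log2 difference of 0.53 against 0.02 over all genes tested. Fasn (ENSMUSG00000025153, chr11:120805846-120824547, minus strand of GRCm38), which encodes fatty acid synthase, stood at 370, 441, 336 and 401 CPM in the 4 HFD fed livers and at 111, 86.1, 120 and 98.6 CPM in the 4 CD fasted livers. The groups did not overlap, and the log2 difference was 1.90 (SE 0.18, adjusted p = 3.08e-05). Both states were under fed CD livers, where Fasn reached 1130 ± 317 CPM (SD, n = 4), the HFD fed livers by a log2 difference of -1.54 (adjusted p = 0.00031) and the CD fasted livers by one of -3.44 (adjusted p = 1.2e-07).

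Srebf1 stood at 291, 217, 212 and 218 CPM in HFD fed and at 39.2, 33.3, 74.6 and 47.4 CPM in CD fasted livers, a 4.82-fold difference (log2 2.27, SE 0.20, adjusted p = 2.11e-05). Srebf1 was not separated from its fed CD level of 175 ± 9.31 CPM in HFD fed livers (log2 0.42, adjusted p = 0.222). Thrsp, a regulator of lipogenesis that answers to thyroid hormone and carbohydrate, had the widest gap of the list, at 215, 149, 212 and 140 CPM against 6.08, 5.99, 18 and 8.88 CPM. The difference was 18.3-fold (log2 4.19, SE 0.55, adjusted p = 0.000593). Elovl5, which elongates polyunsaturated fatty acids, was the member on the other side, at 386, 329, 408 and 481 CPM in HFD fed and 1069, 984, 603 and 814 CPM in CD fasted livers (log2 -1.11, SE 0.24, adjusted p = 0.00584).

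Fewer cholesterol genes passed. Of 24 genes of cholesterol synthesis and uptake 7 were higher and 0 lower (29.2% called, against 21.4% of all genes). At the same level without differing were 3, and 22 of the 24 log2 differences were above 0 (median 0.60). The count of higher genes was 3 without HFD fed replicate 1 or 2, 4 without CD fasted replicate 1 or 2, and 11 when only the 8 libraries were fitted. Nsdhl, a demethylating dehydrogenase of the late pathway, stood at 39.7, 68.7, 34.9 and 20.6 CPM in HFD fed and at 11.6, 9.82, 11.1 and 8.53 CPM in CD fasted livers (log2 1.995, SE 0.42, adjusted p = 0.00548). Its groups were clear of each other, although the HFD fed livers spread widely. Ebp, an isomerase of the same pathway, was at the same level in both states, at 153, 152, 158 and 142 CPM against 136, 147, 157 and 153 CPM (log2 0.03, adjusted p of equal level 0.000217).

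Promoters were read for the lipogenic and cholesterol lists and for the lists of fatty acid oxidation and PPARalpha targets described further on. RefSeq promoters of GRCm38.p6 were at hand for 21 of the 24 lipogenic, 17 of the 24 cholesterol and 24 of the 30 fatty acid oxidation genes tested. The 250 bases before the start were searched on both strands for CCAAT, the box bound by NF-Y, and TCACNCCAC, a form of the sterol regulatory element. CCAAT was found in 15 of the 17 cholesterol promoters (88.2%), 11 of the 21 lipogenic (52.4%) and 11 of the 24 oxidation promoters (45.8%), against 36.4% of the 11041 promoters of genes tested. TCACNCCAC was found in 1 cholesterol, 0 lipogenic and 1 oxidation promoter, against 1.03% of the promoters of genes tested. Of 14 promoters of other PPARalpha targets 7 held CCAAT and 1 held TCACNCCAC. The E-box CACGTG was found in 14.3% of the lipogenic, 17.6% of the cholesterol, 0% of the oxidation and 21.4% of the PPARalpha target promoters, against 8.17% of those of genes tested. For AGAACA, a glucocorticoid receptor half-site, the shares were 14.3%, 17.6%, 4.17% and 28.6%, against 11%. The D-box TTATGTAA and the direct repeat DR1 were found in 0 promoters of these 4 lists, against 0.534% and 0.0543%. Among the 11041 promoters of genes tested, the DR1 letters searched matched only 6 and the D-box letters 59. With matches this rare, 0 in lists of 14 to 24 promoters cannot show that these genes lack either element. A match describes letters in this window and nothing more. Promoters of 3 genes are shown, 1 each from the lipogenic, cholesterol and oxidation lists, and the PPARalpha target list is not represented. They were chosen after their values were seen, from members described in full whose window lay outside the annotated gene. CCAAT (or ATTGG on this strand) and the sterol element are in capitals. They run 5' to 3' on the strand of the gene, Fasn at chr11:120824548-120824797 (minus strand), Nsdhl at chrX:72918271-72918520 (plus strand) and Ehhadh at chr16:21787835-21788084 (minus strand).
Fasn: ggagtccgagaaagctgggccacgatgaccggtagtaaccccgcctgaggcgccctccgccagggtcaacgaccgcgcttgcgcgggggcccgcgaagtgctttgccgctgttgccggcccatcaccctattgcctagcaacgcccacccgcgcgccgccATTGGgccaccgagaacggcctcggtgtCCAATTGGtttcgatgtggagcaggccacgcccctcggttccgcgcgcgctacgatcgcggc
Nsdhl: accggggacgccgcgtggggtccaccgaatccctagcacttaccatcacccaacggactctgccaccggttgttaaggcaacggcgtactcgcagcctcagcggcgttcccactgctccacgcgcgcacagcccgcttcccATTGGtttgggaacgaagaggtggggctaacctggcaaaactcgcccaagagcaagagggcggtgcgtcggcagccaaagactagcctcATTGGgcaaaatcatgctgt
Ehhadh: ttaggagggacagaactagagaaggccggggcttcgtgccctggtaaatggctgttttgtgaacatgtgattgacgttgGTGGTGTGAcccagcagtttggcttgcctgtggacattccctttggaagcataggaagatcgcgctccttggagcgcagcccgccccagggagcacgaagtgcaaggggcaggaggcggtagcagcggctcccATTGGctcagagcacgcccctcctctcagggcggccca
Fasn held 3 CCAAT matches, of which the last and the one before it overlap on opposite strands. Nsdhl held 2 and Ehhadh, whose level was lower in HFD fed livers, held 1 and a sterol element.

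**Figure D2:**
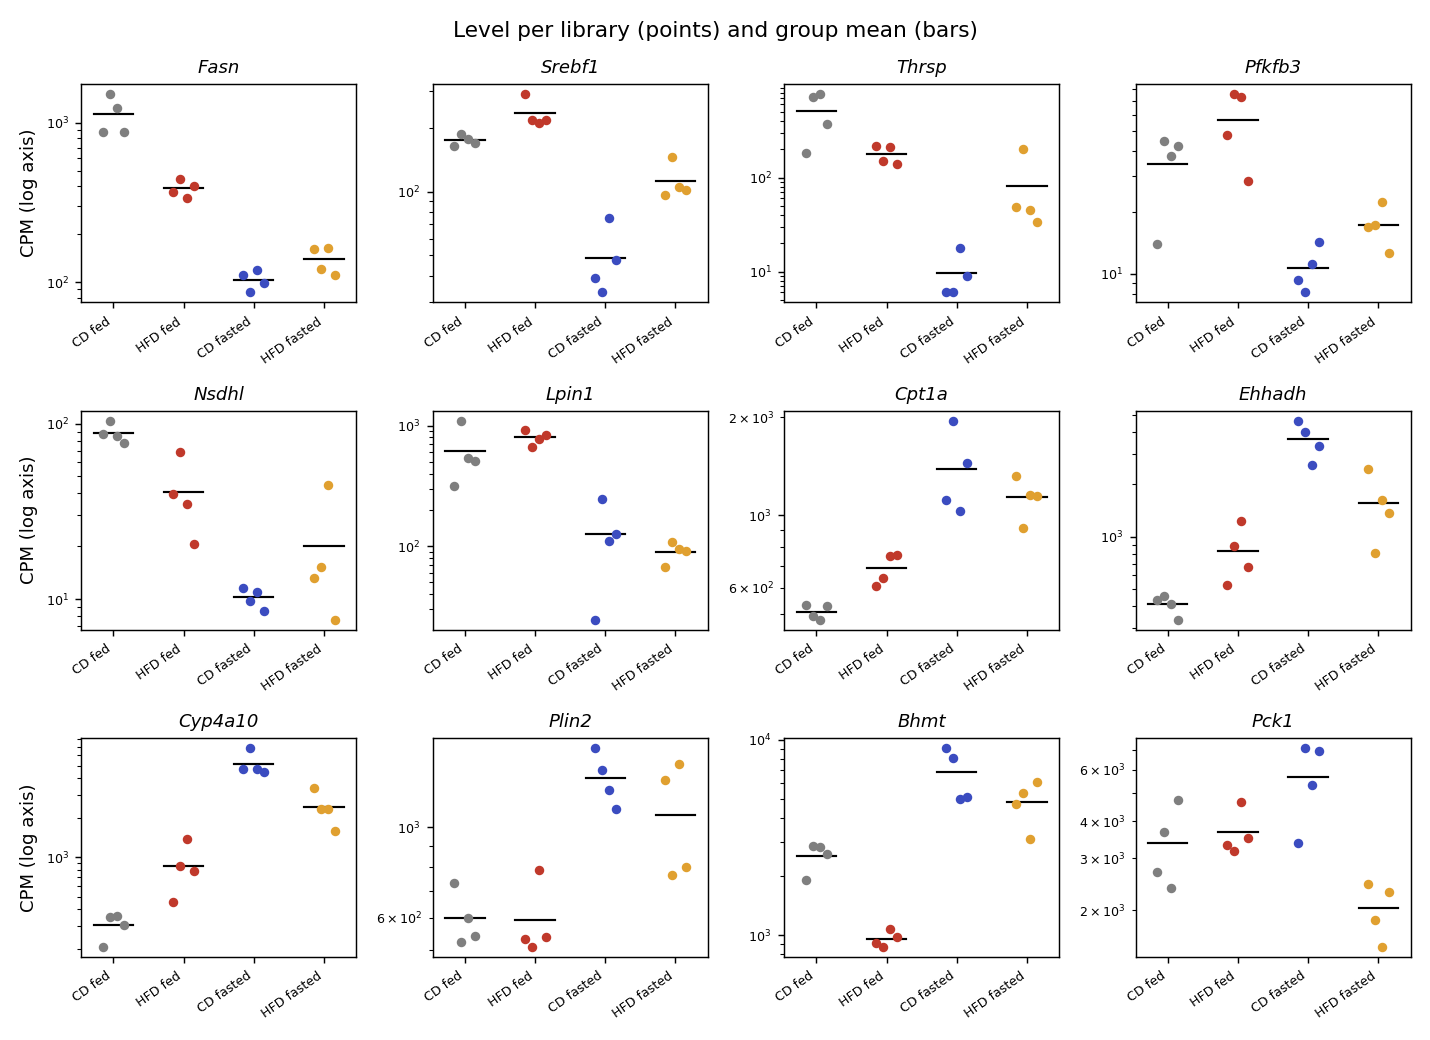
Level of 12 genes in each library as CPM on a log axis, by group (CD fed, HFD fed, CD fasted, HFD fasted, n = 4 each), with points for libraries and bars for group means. Fasn, Srebf1, Thrsp, Pfkfb3, Nsdhl and Lpin1 are lower in each CD fasted than in each HFD fed liver, Cpt1a, Ehhadh, Cyp4a10, Plin2 and Bhmt are higher in each, and the groups overlap for Pck1.

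Genes of fatty acid oxidation stood lower in HFD fed than in CD fasted livers. Of 30 genes of mitochondrial and peroxisomal oxidation 22 were lower, 0 higher and 5 at the same level without differing (median log2 difference -0.50). Cpt1a, which admits long-chain fatty acids to mitochondria, stood at 606, 645, 754 and 756 CPM in HFD fed and at 1117, 1949, 1031 and 1451 CPM in CD fasted livers (log2 -1.01, SE 0.17, adjusted p = 0.00133). The HFD fed livers were close to each other and not separated from fed CD livers, at 507 ± 25.9 CPM (log2 0.44, adjusted p = 0.126). Ehhadh, the bifunctional enzyme of peroxisomes, differed more, at 527, 880, 1237 and 674 CPM against 4637, 4014, 2572 and 3311 CPM (log2 -2.13, SE 0.30, adjusted p = 0.000522). Acaa2, the last thiolase of the mitochondrial spiral, was at the same level, at 945 to 1238 and 1049 to 1202 CPM (log2 0.02, adjusted p of equal level 0.000366).

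Of 7 genes of ketone body synthesis and export 5 were lower in HFD fed livers and 0 higher (median -0.47). Slc16a1, the exporter of lactate and ketone bodies, differed by -0.76 (SE 0.19, adjusted p = 0.0119).

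Other PPARalpha targets gave the lowest median of the metabolic lists, -1.06, with 12 of 22 lower and 0 higher. Cyp4a10, an omega-hydroxylase of fatty acids, stood at 454, 849, 1374 and 779 CPM in HFD fed and at 4689, 6835, 4707 and 4487 CPM in CD fasted livers (log2 -2.58, SE 0.29, adjusted p = 0.000165). Cyp4a14, a neighbour of like function, stood at 2064, 2788, 5297 and 2425 CPM against 9651, 12183, 9865 and 9954 CPM (log2 -1.73, SE 0.35, adjusted p = 0.00423). Both states lay above fed CD livers, where Cyp4a10 was at 304 ± 69.7 and Cyp4a14 at 394 ± 156 CPM, with log2 differences in HFD fed livers of 1.505 (adjusted p = 0.00722) and 2.996 (adjusted p = 0.000369). Cyp4a genes are close copies, and the counting could have split reads between them. Not every target told the states apart. Angptl4, an inhibitor of lipoprotein lipase, was at 215 to 342 and 232 to 297 CPM, at the same level (log2 0.05, adjusted p of equal level 0.0152). Fgf21, a hormone of fasting, was at 4.13, 3.61, 7.14 and 10.9 CPM against 19.7, 15.9, 14.8 and 11.3 CPM, without overlap, yet the difference did not pass (log2 -1.25, 95% interval -2.48 to -0.03, adjusted p = 0.137, past the threshold when only the 8 libraries were fitted). Pdk4, which blocks entry of pyruvate into the citric acid cycle, overlapped between groups (log2 -0.59, 95% interval -1.48 to 0.31, adjusted p = 0.341), and its difference was -0.27 without CD fasted replicate 3 and -1.03 without HFD fed replicate 3.

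Of 21 genes of the lipid droplet coat and of lipolysis 7 were lower in HFD fed than in CD fasted livers, 0 higher and 6 at the same level without differing (median -0.41), and for 8 neither could be said. Plin2, the coat protein most tied to liver droplets, was at 533, 510, 784 and 540 CPM in HFD fed and at 1561, 1377, 1230 and 1108 CPM in CD fasted livers (log2 -1.16, SE 0.21, adjusted p = 0.00183). In HFD fed livers it was indistinguishable from the fed CD level of 599 ± 92.8 CPM (log2 -0.02, adjusted p = 0.974). Cidec, which fuses droplets, stood at 18.5, 8.41, 50.2 and 63.3 CPM against 118, 263, 71.9 and 148 CPM (log2 -2.10, SE 0.56, adjusted p = 0.019). That call was lost without HFD fed replicate 1 (adjusted p = 0.0607) or CD fasted replicate 2 (adjusted p = 0.0662).

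Of 18 genes of fatty acid uptake, binding and activation 6 were lower in HFD fed livers, 1 was higher and 4 were at the same level without differing (median -0.04). None was higher without HFD fed replicate 3 or CD fasted replicate 2 or 4, and 2 were higher without CD fasted replicate 3. Slc27a1, a fatty acid transport protein, stood at 11.2, 21, 21.2 and 12.8 CPM against 43.2, 115, 36.5 and 52.5 CPM (log2 -1.90, SE 0.39, adjusted p = 0.00441), and Slc27a2 at 1739 to 1986 against 2840 to 3174 CPM (log2 -0.71, SE 0.10, adjusted p = 0.000394). Cd36, the scavenger receptor that imports fatty acids, was alike in mean but too variable for a call of equal level, at 118, 56.9, 196 and 127 CPM in HFD fed and 131, 102, 160 and 135 CPM in CD fasted livers (log2 -0.09, 95% interval -0.73 to 0.56, adjusted p of equal level 0.106, and a log2 difference of -0.39 without HFD fed replicate 3 and of 0.15 without HFD fed replicate 2). It was above the fed CD level of 55 ± 20.9 CPM in both states (log2 1.18, adjusted p = 0.0308, and 1.26, adjusted p = 0.00792). Of 15 genes of triglyceride synthesis 2 were lower and 1 was higher (20% called, against 21.4% of all genes). The higher one was Lpin1, a phosphatidate phosphatase that also acts in the nucleus, at 924, 661, 766 and 838 CPM in HFD fed and 24.5, 245, 111 and 125 CPM in CD fasted livers (log2 2.66, SE 0.47, adjusted p = 0.00228).

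**Figure D3:**
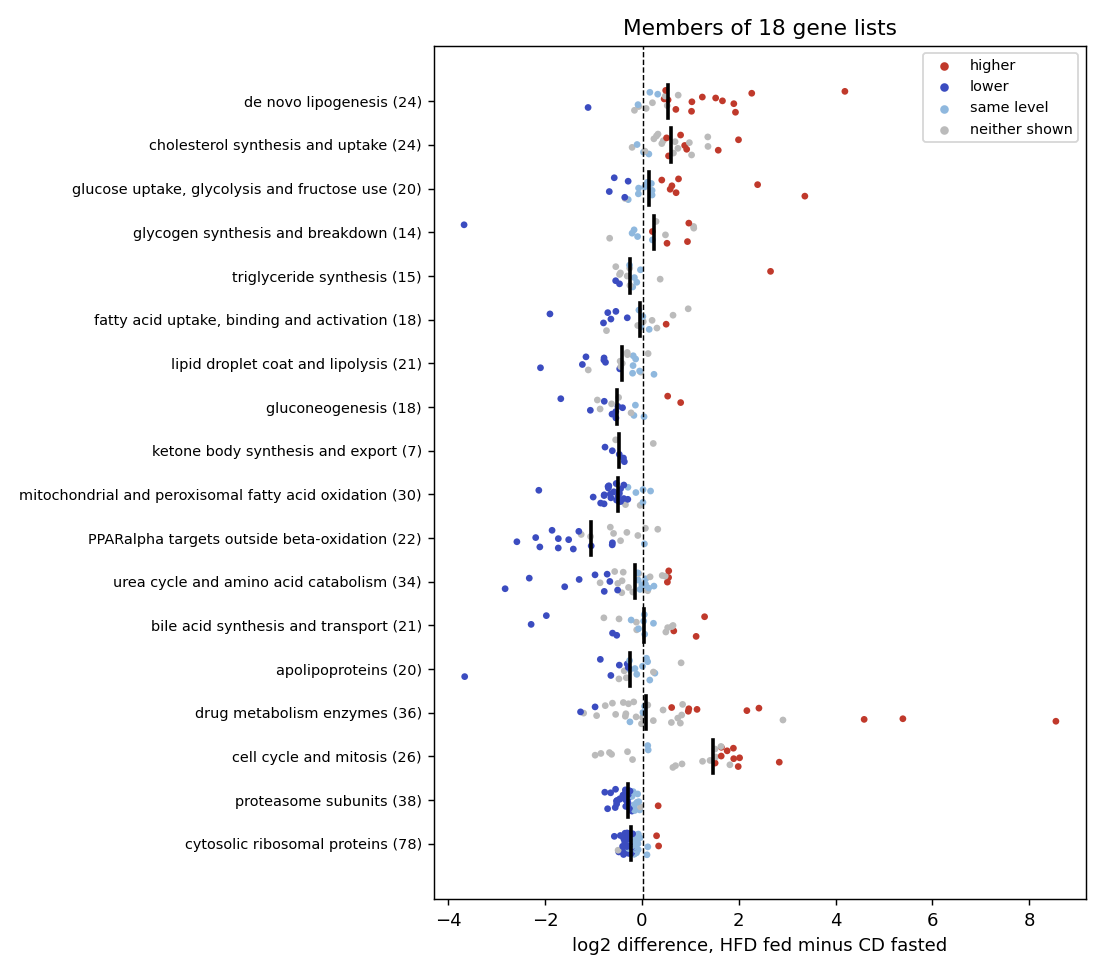
Log2 difference between HFD fed and CD fasted livers (horizontal axis) for each tested member of 18 gene lists, 1 point per gene, with a black bar at each list's median and a dashed line at the median of all genes tested. Lipogenesis and cholesterol genes lie mostly to the right, with medians of 0.53 and 0.60, and oxidation, ketogenesis and PPARalpha target genes to the left, with medians of -0.50, -0.47 and -1.06.

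Of 20 genes of glucose uptake, glycolysis and fructose use 7 were higher in HFD fed livers, 4 lower and 8 at the same level without differing. Without HFD fed replicate 1 these counts were 4 higher and 2 lower, and 2 were lower without HFD fed replicate 4 or CD fasted replicate 2. Pfkfb3, which makes the activator of phosphofructokinase, was at 47.9, 76, 72.9 and 28.4 CPM against 9.32, 8.11, 11.1 and 14.3 CPM (log2 2.39, SE 0.34, adjusted p = 0.000584). Ldha, the lactate dehydrogenase subunit of muscle type, was lower at 991 to 1128 against 1474 to 1967 CPM (log2 -0.67, SE 0.16, adjusted p = 0.00863). Of 14 glycogen genes 4 were higher and 1 lower, among the higher ones Pygl, the liver phosphorylase (log2 0.97, SE 0.13, adjusted p = 0.00032), and Gbe1, the branching enzyme (log2 0.94, SE 0.19, adjusted p = 0.00319). The lower one was Ppp1r3g, a glycogen-targeting subunit of protein phosphatase, at 1.82, 1.03, 2.08 and 6.86 CPM against 0.684, 110, 5.73 and 35.4 CPM (log2 -3.68, SE 0.95, adjusted p = 0.02). The groups overlapped, and the call was lost without HFD fed replicate 1 (adjusted p = 0.0601), 2 (0.0528) or 3 (0.0546) or CD fasted replicate 2 (0.109). Without CD fasted replicate 2 the log2 difference was -2.23. The call was also lost with limma-voom (log2 -2.21, adjusted p = 0.288) and when only the 8 libraries were fitted by edgeR (adjusted p = 0.0724).

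Of 18 genes of gluconeogenesis 8 were lower in HFD fed livers and 2 higher (median -0.52), and 5 were lower without HFD fed replicate 1 or 2 or CD fasted replicate 2 or 4. The members that differed most firmly were not the classical markers. Gk, the glycerol kinase, was at 115, 105, 143 and 116 CPM against 264, 249, 228 and 261 CPM (log2 -1.07, SE 0.13, adjusted p = 0.000246), and Pcx, pyruvate carboxylase, at 610 to 774 against 994 to 1482 CPM (log2 -0.78, SE 0.14, adjusted p = 0.0017). Pck1, the carboxykinase, stood at 3340, 3183, 4659 and 3518 CPM in HFD fed and 3369, 7106, 5316 and 6915 CPM in CD fasted livers, where replicate 1 lay within the HFD fed range, and the difference did not pass (log2 -0.63, 95% interval -1.16 to -0.09, adjusted p = 0.0888, and 0.0306 without that library but 0.22 without CD fasted replicate 2). With DESeq2 the Pck1 difference passed (adjusted p = 0.0452). G6pc, the glucose-6-phosphatase, overlapped widely (log2 -0.22, 95% interval -1.02 to 0.57, adjusted p = 0.704), and its difference was 0.15 without CD fasted replicate 2. Ppargc1a, a coactivator of the programme, was at 14.8, 10.5, 15.2 and 12.7 CPM against 10.2, 48.5, 14.2 and 27.8 CPM (log2 -0.92, 95% interval -1.73 to -0.11, adjusted p = 0.0992, and 0.0326 without CD fasted replicate 1). Without CD fasted replicate 2 the log2 difference was -0.39 (adjusted p = 0.442), so the fasted livers spread widely for this gene. Of 25 genes of insulin and growth hormone signalling 4 were higher and 3 lower (28% called, against 21.4% of all genes), with 1 or 2 higher without HFD fed replicate 3 or 4 or CD fasted replicate 1, 2 or 3, and 5 lower without HFD fed replicate 4. Igfbp1, a binding protein raised in fasting, ranged from 38 to 616 CPM among CD fasted and from 20.5 to 100 CPM among HFD fed livers (log2 -1.98, 95% interval -3.63 to -0.34, adjusted p = 0.0886). Its difference rested on CD fasted replicate 2, without which it was -0.34 (adjusted p = 0.735), while it passed without CD fasted replicate 3 (adjusted p = 0.0458). Klf15, a regulator of amino acid use in fasting, was at the same level (log2 -0.04, adjusted p of equal level 0.00601).

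Of 34 genes of the urea cycle and amino acid catabolism 9 were lower, 3 higher and 9 at the same level without differing, and the higher ones were 0 without HFD fed replicate 1 or CD fasted replicate 2, and 1 without HFD fed replicate 3 or CD fasted replicate 1. Bhmt (ENSMUSG00000074768, chr13:93616675-93637961, minus strand), which remethylates homocysteine, was at 915, 872, 1075 and 974 CPM in HFD fed and at 9092, 8035, 4989 and 5103 CPM in CD fasted livers (log2 -2.83, SE 0.22, adjusted p = 1.32e-05). The 2 states lay on opposite sides of fed CD livers, at 2552 ± 438 CPM, with log2 differences of -1.41 for HFD fed (adjusted p = 0.00198) and 1.41 for CD fasted livers (adjusted p = 0.000465). Oat, ornithine aminotransferase, stood at 533, 466, 557 and 350 CPM against 2637, 2675, 2061 and 2202 CPM (log2 -2.33, SE 0.21, adjusted p = 2.17e-05). Cth, which makes cysteine, was at 261, 216, 236 and 238 CPM against 522, 964, 539 and 849 CPM (log2 -1.60, SE 0.22, adjusted p = 0.000442). In all 3 enzymes every fasted liver lay above every fed one by a wide margin.

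Of 21 bile acid genes 4 were lower in HFD fed livers and 3 higher (33.3% called, against 21.4% of all genes). With library totals 4 were lower and 6 higher, and the higher ones were 5 without HFD fed replicate 4. Cyp8b1, the sterol hydroxylase that sets the share of cholic acid, was at 190, 284, 264 and 179 CPM against 1219, 1524, 792 and 946 CPM (log2 -2.29, SE 0.25, adjusted p = 0.000131). Abcb11, the export pump of bile salts, went the other way, at 760, 572, 640 and 650 CPM against 358, 186, 400 and 262 CPM (log2 1.12, SE 0.18, adjusted p = 0.00108). Of 20 apolipoprotein and lipoprotein genes 6 were lower, 0 higher and 9 at the same level without differing (30% called, against 21.4% of all genes). With library totals 3 were lower and 1 higher, and 3 were lower without CD fasted replicate 2 or 4. Apoa4 was at 188, 147, 375 and 1522 CPM in HFD fed and at 8093, 10954, 1937 and 7297 CPM in CD fasted livers (log2 -3.66, SE 0.66, adjusted p = 0.00339). HFD fed replicate 4 and CD fasted replicate 3 came close to each other, and the remaining 6 libraries lay far apart. Apob and Apoe, the main structural apolipoproteins of the particles that the liver secretes and clears, were at the same level, with log2 differences of -0.11 and -0.14 (adjusted p of equal level 0.00293 and 0.00821). Scarb1, the receptor for high-density lipoprotein, was at 192, 186, 165 and 223 CPM against 173, 189, 186 and 170 CPM, at the same level (log2 0.09, 95% interval -0.16 to 0.35, adjusted p of equal level 0.0018).

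Of 36 genes of drug metabolism tested 9 were higher and 2 lower (median 0.09, 30.6% called, against 21.4% of all genes). Cyp2b9 was at 45.4, 12.7, 162 and 27.6 CPM in HFD fed and at 0.684, 0.384, 3.88 and 0.74 CPM in CD fasted livers (log2 5.39, SE 0.90, adjusted p = 0.00198). Cyp2a4 ranged from 3.73 to 137 CPM in HFD fed livers, with 176 to 6936 counts, and from 0.0256 to 0.256 CPM, with 1 to 13 counts, in CD fasted livers, where all but replicate 3 were within 4 counts (adjusted p = 0.00148, and 0.113 with limma-voom). Fed CD livers held 0.204 ± 0.146 CPM of it. Both genes have close relatives whose reads could have been assigned to them. Cyp3a25, of the steroid- and drug-oxidizing 3A family, was lower, at 304, 192, 347 and 185 CPM against 656, 418, 769 and 634 CPM (log2 -1.27, SE 0.25, adjusted p = 0.00374).

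Stress programmes did not move as 1 block. Of 22 genes of endoplasmic reticulum chaperones and the unfolded protein response 4 were higher and 4 lower (36.4% called, against 21.4% of all genes). There were 2 higher without HFD fed replicate 1 or CD fasted replicate 1 or 2, and 1 lower without CD fasted replicate 4. Pdia4, a chaperone isomerase, was lower at 135, 142, 155 and 109 CPM against 217, 159, 236 and 272 CPM (log2 -0.71, SE 0.18, adjusted p = 0.0129). Sec61b, a subunit of the translocon, was higher at 42.7, 41.5, 38.9 and 37.2 CPM against 18.6, 17.7, 22.8 and 20.7 CPM (log2 1.01, SE 0.11, adjusted p = 9.15e-05), as was the sensor Ern1 (log2 0.82, SE 0.16, adjusted p = 0.00307). Of 21 ATF4 targets 5 were higher and 2 lower (33.3% called), among them Chac1, a glutathione-degrading enzyme, higher by 2.32 (SE 0.48, adjusted p = 0.00477). Of 18 NRF2 targets 5 were lower and 2 higher (38.9% called, and 3 and 2 with library totals), with Srxn1, sulfiredoxin, at 30.1, 37.7, 40.8 and 54.3 CPM against 100, 101, 77.2 and 77.6 CPM (log2 -1.13, SE 0.15, adjusted p = 0.000388). Of 16 glucocorticoid genes 4 were higher and 0 lower (25% called, close to all genes), 2 without HFD fed replicate 1, 2 or 3 or CD fasted replicate 1, 2 or 4, and 2 were lower without HFD fed replicate 4. Fkbp5, the chaperone of the receptor, was at 211, 173, 301 and 205 CPM against 32.7, 97.9, 112 and 112 CPM (log2 1.33, SE 0.32, adjusted p = 0.011), and was above fed CD livers (65.7 ± 14.2 CPM) in HFD fed livers (log2 1.76, adjusted p = 0.00593). Of 20 clock genes 1, Cry1, passed the test (5% called, below the 21.4% of all genes), and its call was lost in 8 of 17 alternatives.

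Of 27 acute phase and iron genes 7 were lower and 4 higher (3 lower and 4 higher with library totals), but only 1 or 2 were lower without HFD fed replicate 1, 2 or 3 or CD fasted replicate 1 or 2. Saa1, the inducible serum amyloid A, varied between single livers, at 28.7, 11.7, 19.6 and 50.6 CPM in HFD fed and 576, 141, 19.2 and 25.9 CPM in CD fasted livers. Only the first and second fasted livers exceeded the HFD fed range, and the adjusted p of 0.0474 became 0.325 without CD fasted replicate 1 and 0.0689 to 0.108 without CD fasted replicate 2 or HFD fed replicate 1, 2 or 3. Saa4, the constitutive family member, was firmly higher in HFD fed livers, at 560, 450, 742 and 347 CPM against 173, 87.2, 208 and 179 CPM (log2 1.70, SE 0.31, adjusted p = 0.00232). Il6ra, the interleukin 6 receptor chain, was higher as well (log2 1.15, SE 0.23, adjusted p = 0.00385). Of 29 interferon and antigen presentation genes 7 were lower and 0 higher (24.1% called, close to the 21.4% of all genes), 4 without HFD fed replicate 1 or 3 or CD fasted replicate 1 or 4. Rsad2, an antiviral enzyme, was at 4.45, 5.41, 4.51 and 7.13 CPM against 16.2, 7.98, 12 and 10.6 CPM (log2 -1.12, SE 0.26, adjusted p = 0.00804). Of 23 secreted regulators 4 were lower and 1 higher (21.7% called, against 21.4% of all genes), and 2 were lower without HFD fed replicate 1, while 3 were higher without HFD fed replicate 4 or CD fasted replicate 3. Fetub, a liver-derived protease inhibitor, was lower by 0.84 on the log2 scale (SE 0.18, adjusted p = 0.00579), and by 0.54 without CD fasted replicate 2, its highest library.

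Of 26 cell cycle genes 9 were higher in HFD fed livers and 0 lower (median 1.46). Without HFD fed replicate 4, 3 were higher and the median was 0.71, and 5 were higher without CD fasted replicate 1 or 3. Requiring a CPM of at least 1 in at least 4 libraries left 20 members, 6 of them higher, with a median of 0.77. Above 0 lay 14 of these 20 log2 differences, against 20 of 26 before, so the median rested in part on scarce members. Fitting only the 8 libraries left 22 members, 6 higher (median 1.05). By limma-voom 6 were higher, and by DESeq2 12 were higher and 2 lower. The summed level of the list was 92.4 to 247 CPM in HFD fed and 78.2 to 104 CPM in CD fasted livers, and the ranges overlapped. Cdk1, the kinase of mitotic entry, was at 2.69, 1.55, 2.68 and 2.98 CPM against 0.448, 0.588, 0.571 and 0.827 CPM (log2 2.02, SE 0.39, adjusted p = 0.0027). Of 13 matrix and stellate cell markers 3 were higher as well and 0 lower (1 without HFD fed replicate 4 or CD fasted replicate 3), with a summed level of 266 to 495 against 170 to 265 CPM. The share of these markers called was 23.1%, close to the 21.4% of all genes. Reln, expressed by stellate cells, was at 80.7, 67.5, 77.2 and 86.3 CPM against 25.6, 44.2, 50.6 and 55 CPM (log2 0.83, SE 0.18, adjusted p = 0.00484), and Pecam1, an endothelial marker, at 22.4, 20.3, 23.9 and 24.2 CPM against 12, 18.5, 17.7 and 14.8 CPM (log2 0.53, SE 0.12, adjusted p = 0.00788). The part of these cell types in the cell cycle difference was not tested.

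Machinery common to all cells differed by little and depended on scaling. Of 38 proteasome subunits 27 were lower in HFD fed livers and 1 was higher (median -0.30), and with library totals 18 were lower and 1 higher. Psmd4, a ubiquitin receptor of the proteasome, was at 86, 87.7, 93.9 and 87.3 CPM against 169, 177, 140 and 119 CPM (log2 -0.77, SE 0.11, adjusted p = 0.000584). Of 78 cytosolic ribosomal proteins 45 were lower and 2 higher (median -0.23), yet 72 of the 78 lay within 1.5-fold, so most of these differences were small. With library totals 13 were lower and 3 higher, and without HFD fed replicate 1 or 3 or CD fasted replicate 2 from 24 to 27 were lower. Of 79 subunits of oxidative phosphorylation 29 were lower and 1 higher, with 68 within 1.5-fold, and with library totals 13 were lower and 5 higher. Without HFD fed replicate 1 or 3, 17 were lower, and without CD fasted replicate 2, 16. Mitochondrial ribosomal proteins (16 lower, 4 higher of 77) and core spliceosome proteins (7 lower, 2 higher of 64) reversed their split under library totals, to 5 lower and 11 higher and to 1 lower and 6 higher, so no direction is given for either. Their shares called were 26% and 14.1%, against 21.4% of all genes. Without HFD fed replicate 1 or CD fasted replicate 2, 10 mitochondrial ribosomal proteins were lower, and 2 to 4 spliceosome proteins were lower without HFD fed replicate 1 or 3 or CD fasted replicate 1 or 2. Of 21 citric acid cycle genes 7 were lower and 1 higher (38.1% called), and of 22 autophagy and lysosome genes 4 were lower and 4 higher (36.4% called). Under library totals 5 and 8 were higher.

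All 8 splicing regulators that the study singled out lay within 1.5-fold between the 2 states. The study ranked factors by cross-linking in human liver cells near exons whose splicing changed. These 8 were near the top in each of its comparisons, of fasting, HFD and a high-fructose diet. Part of that choice rests on these samples, so the list is no independent evidence. Of the 8, 1 was also called higher and 3 lower, against 2 higher and 0 lower with library totals, so no direction is given. Without CD fasted replicate 1, 0 were lower, and 1 was lower without HFD fed replicate 1 or 3 or CD fasted replicate 2. Rbfox2 (ENSMUSG00000033565, chr15:77078990-77307004, minus strand), a splicing factor, was at 35.1, 35.5, 31.4 and 35.1 CPM in HFD fed and at 40.9, 40.3, 36.6 and 43 CPM in CD fasted livers. The ranges did not overlap, and the gene met both definitions, a difference of -0.23 on the log2 scale (SE 0.07, adjusted p = 0.0295) and equal level within 1.5-fold (adjusted p of equal level 0.000356). The call of a difference was lost in 7 of 17 alternatives, with an adjusted p of 0.273 under library totals and of 0.0534 to 0.0947 without HFD fed replicate 1 or 3 or CD fasted replicate 1, 2 or 4. Against fed CD livers, at 31.6 ± 1.75 CPM, Rbfox2 was higher in CD fasted livers (log2 0.35, adjusted p = 0.0024) and not separated in HFD fed livers (log2 0.12, adjusted p = 0.341). The decrease that the study reports with HFD is in the main RBFOX2 protein isoform, which RNA counts per gene do not measure.

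Genes could stand at 1 level because neither state moved them or because both did. In 142 genes of equal level both states were above fed CD livers, and in 174 both were below, each at an adjusted p under 0.05. Since both comparisons use the same 4 CD fed libraries, an error in those moves both the same way, and these counts carry no test. Efna5 (ENSMUSG00000048915), an ephrin ligand of the cell surface, was at 5.87, 6.04, 7.59 and 5.61 CPM in HFD fed and at 5.49, 6.5, 5.89 and 6.14 CPM in CD fasted livers, against 3.26 ± 0.263 CPM in fed CD livers (log2 differences of 0.95 and 0.88 from the latter). Between the 2 states it differed by 0.06 (adjusted p of equal level 0.00154). Qpct, a glutaminyl cyclase, was at 10.1, 16.1, 14.6 and 10.4 CPM against 10.8, 12.2, 11.8 and 14 CPM (log2 0.07, adjusted p of equal level 0.00482), with fed CD livers at 6.45 ± 0.48 CPM. Rhbdd2, of the rhomboid family, was 29.7 to 45.5 and 29.2 to 46.9 CPM (log2 -0.13, adjusted p of equal level 0.0147, and 0.0544 without HFD fed replicate 3) against 15.9 ± 2.55 CPM. On the low side Mr1, which presents vitamin B metabolites to T cells, was at 2.84, 3, 3.11 and 2.9 CPM and at 2.88, 2.64, 3.5 and 3.39 CPM (log2 -0.07, adjusted p of equal level 0.00979), with fed CD livers at 7.53 ± 1.88 CPM. These genes were picked because both states stood at one level that fed CD livers did not share. Their values illustrate that pattern and do not test it.

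**Figure D4:**
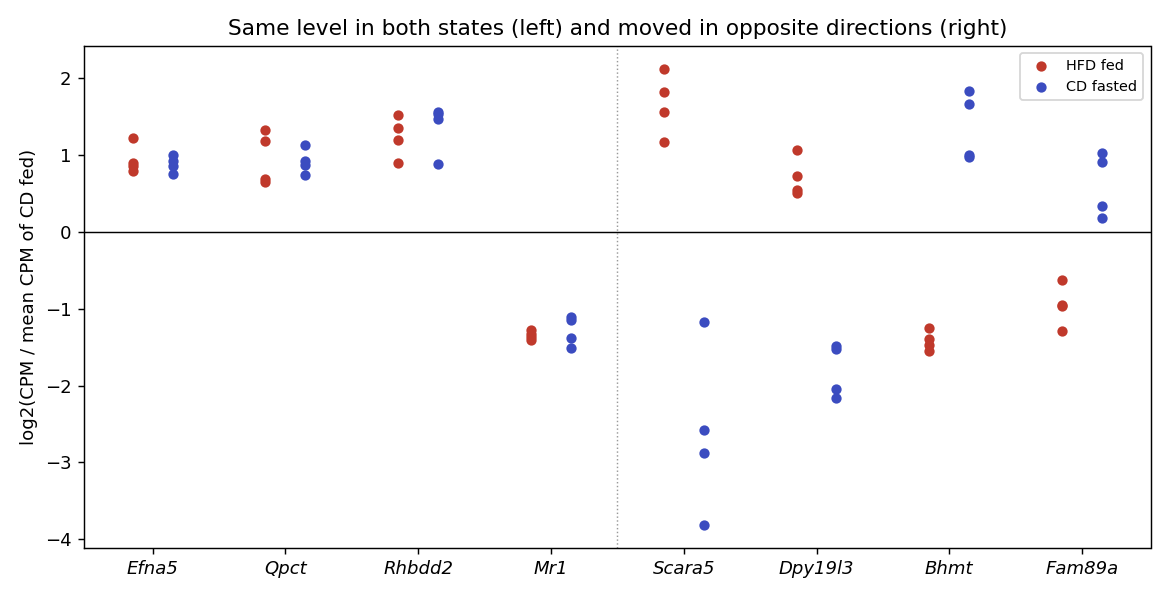
Level of 4 genes at the same level in both states (Efna5, Qpct, Rhbdd2 and Mr1) and of 4 genes that the states moved in opposite directions (Scara5, Dpy19l3, Bhmt and Fam89a), as log2 CPM relative to the mean of the CD fed libraries, per library, for HFD fed and CD fasted livers. In the first 4 genes both groups lie on one side of the zero line and overlap, and in the others they lie on opposite sides.

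In 8 genes HFD fed livers were above and CD fasted livers below fed CD livers, and in 12 genes the reverse held, again with the CD fed libraries shared and no test of these counts. Scara5 (ENSMUSG00000022032, chr14:65666403-65764826, plus strand), a ferritin receptor, was at 70.4, 47.6, 57.2 and 36.3 CPM in HFD fed and at 1.16, 7.19, 2.21 and 2.72 CPM in CD fasted livers, a 16.1-fold difference (log2 4.01, SE 0.45, adjusted p = 0.000194). Fed CD livers stood between, at 16.2 ± 9.26 CPM. Dpy19l3, a C-mannosyltransferase, was at 29, 23, 20.2 and 19.7 CPM against 3.37, 3.12, 4.96 and 4.85 CPM (log2 2.49, SE 0.19, adjusted p = 1.32e-05), with fed CD livers at 13.9 ± 2.44 CPM. Eda2r, a receptor of the tumour necrosis factor family, showed the same order at 2.34 to 5.65 against 0.326 to 0.59 CPM (log2 3.26, SE 0.39, adjusted p = 0.000194), and Ephb6, a kinase-dead ephrin receptor, at 2.8 to 4.57 against 0.472 to 0.895 CPM (log2 2.62, SE 0.24, adjusted p = 2.11e-05). The reverse pattern held Bhmt, given above, and Fam89a, at 2.16, 3.41, 2.72 and 2.73 CPM in HFD fed and 10.8, 9.9, 6.67 and 6.01 CPM in CD fasted livers (log2 -1.60, SE 0.21, adjusted p = 0.000289).

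Several of the largest differences fell in genes that share bases with another gene on the other strand. The reads were aligned as a stranded library, but whether the counting used strand is not given in the sources used here. Gm10680 (chr9:46242621-46243529, minus strand) lies across from Apoa4 and held 0 to 11 counts in HFD fed and 143 to 1475 counts in CD fasted livers. Gm15622 (chr13:93625382-93628633, plus strand) lies across from Bhmt and held 2, 0, 1 and 0 counts against 438, 189, 116 and 150. Both were high where the gene across from them was high, and unless the counting used strand, reads of the pairs cannot be told apart. Gm15441, across from Txnip, was at 4.41, 8.16, 12.8 and 1.64 CPM against 123, 107, 75 and 81.3 CPM (log2 -3.84, SE 0.65, adjusted p = 0.00215). Lamb3, a laminin chain whose locus overlaps G0s2, was at 6.16, 6.79, 13.8 and 6.36 CPM against 113, 195, 46.9 and 132 CPM (log2 -3.88, SE 0.43, adjusted p = 0.000188). Srgap3, a GTPase-activating protein, was at 0.635, 0.788, 0.732 and 0.77 CPM against 10.8, 6.29, 3.5 and 6.35 CPM (log2 -3.20, SE 0.34, adjusted p = 9.15e-05). Fed CD livers stood at 8.9 ± 4.0 CPM, and the test did not separate CD fasted livers from them (log2 -0.40, adjusted p = 0.356). Hspa1b, an inducible heat shock protein with a near-identical copy, was at 5.49, 8.82, 6.18 and 7.17 CPM against 77.5, 70.2, 19.7 and 33 CPM (log2 -2.86, SE 0.44, adjusted p = 0.00106). Serpina4-ps1, an annotated pseudogene, was among the largest higher differences of genes with a mean of at least 100 counts, at 245, 236, 106 and 183 CPM against 11.9, 3.84, 13.9 and 4.13 CPM (log2 4.51, SE 0.70, adjusted p = 0.00172), and Cyp2c70, the muricholic acid hydroxylase of mice, was at 124, 101, 76.4 and 127 CPM against 28, 5.3, 18.9 and 15 CPM (log2 2.67, SE 0.61, adjusted p = 0.00944).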

How the data were processed

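Poly(A) RNA of liver was sequenced as paired ends. The submitters' processing notes name CASAVA 1.8.4, TopHat2 2.0.11, featureCounts and GRCm38 (mm10), with which the authors mapped reads and counted them per gene. They deposited raw counts for 46078 genes, of which 45229 carried a symbol here. Per the study's methods reads were aligned as a stranded library (fr-firststrand) with the iGenomes annotation. Its release and the strand option of the counting are not given in the sources used here, so overlapping genes are uncertain.

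Counts were tested with the quasi-likelihood test of edgeR 4.0.16 (R 4.3.3) over all 16 libraries, with TMM scaling, filterByExpr and 1 coefficient per group, leaving 12 residual degrees of freedom. P-values were Benjamini-Hochberg adjusted over 15075 genes, at a threshold of 0.05. Equal level was 2 one-sided tests within 1.5-fold in the same fit, adjusted likewise. Fold changes are log2 and CPM are TMM-scaled. Scripts were tested on simulated data. Alternatives used DESeq2 1.42.0, limma 3.58.1, other scalings and filters, and each library left out.

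Members and lists were chosen with earlier results of these data known. Named genes were the 10 largest changes per direction among genes with a mean of at least 100 counts and no overlap between groups, up to 3 per list and direction, up to 2 per list at the same level, the leading genes of equal or opposite moves from CD fed livers, and a fixed set of fasting and lipid genes. Sequences are from RefSeq, GRCm38.p6.

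Some genes of the fixed set and lists are not reported here.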

Additional observations from a re-analysis of the deposited data

Results flagged for a closer look

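Among the 79 genes described, each group of 4 libraries was searched for a library far from the other 3, by Dixon's ratio of its gap to the range of the group at the 95% level. Of 158 groups 13 passed, where chance alone gives about 1 in 20 for independent, normally distributed values. The genes share the same 8 libraries and the CPM were not put on a log scale. That rate is therefore a rough guide, and the count carries no test. In HFD fed livers, replicate 1 stood highest for Srebf1 (291 CPM, others 212 to 218) and lowest for G6pc (331 CPM, others 495 to 509). Replicate 3 stood highest for Plin2 (784 CPM, others 510 to 540) and Lamb3 (13.8 CPM, others 6.16 to 6.79) and lowest for Ern1 (58.1 CPM, others 92.9 to 96.7) and Rbfox2 (31.4 CPM, others 35.1 to 35.5). Replicate 4 stood highest for Apoa4 (1522 CPM, others 147 to 375). In CD fasted livers, replicate 2 stood highest for Cyp4a10 (6835 CPM, others 4487 to 4707), Cyp4a14 (12183 CPM, others 9651 to 9954), Fetub (715 CPM, others 361 to 389) and Igfbp1 (616 CPM, others 38 to 117), and lowest for Pygl (188 CPM, others 255 to 267). Replicate 3 stood highest for Cyp2b9 (3.88 CPM, others 0.384 to 0.74).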

How the results depend on the processing

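For the log2 differences of the 252 genes of the naming rule, 3965 tests under the alternatives stayed on their side of the threshold, 286 lost it and 29 gained it. The sign changed in 72 values of 31 genes, of which 0 passed the threshold as reported or under the alternative (edgeR, DESeq2 and limma-voom alike). The 3231 differing genes became 1353 at an adjusted p under 0.01 and 637 at an absolute log2 difference of at least 1, with 517 and 296 of the higher and 836 and 341 of the lower genes. Scaling by library totals turned the majority from lower to higher, with 2664 higher and 1018 lower genes, and fitting only the 8 libraries gave 1211 lower genes. Leaving out 1 library at a time gave 2145 to 3249 differing, 911 to 1489 higher, 1234 to 1760 lower and 6661 to 7450 same-level genes. A margin of 1.2-fold left 0 genes at the same level (edgeR) and one of 2-fold 11792, so equal level is a statement about the margin. The replicate number does not pair these mice: same-numbered libraries correlated by -0.01 to 0.07 in their deviations, and no number matched itself best. With the replicate block 3385 genes differed, 1486 higher and 1899 lower, and 7592 were at the same level. With 4 mice per group and a common coefficient of variation of 19.1%, low and variable genes often reached neither statement.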
